A study of Danio rerio with 36 samples.

Results

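Genes of regenerating zebrafish caudal fins were sorted by whether they changed at a late stage, 4 days post amputation (dpa), at an early stage, given as 1 dpa, or at both. The late response was taken from batch 1, as whole fins at 4 dpa minus whole fins at 0 dpa, and the early response from batch 2, as libraries labelled 1 dpa minus libraries labelled 0 dpa. Of 14781 genes in the files 12277 were tested in both batches. With batch 2 read as titled, 1738 genes fell into the classes early-only (875), sustained (260) and late-only (603). With the groups of batch 2 exchanged, 4035 genes did (851 early-only, 2609 sustained and 575 late-only). A gene counted as changed where its adjusted p was under 0.05 and its difference at least 2-fold. Sustained genes changed in both batches with the same sign. Early-only genes changed in batch 2, moved by less than 0.5 on the log2 scale in batch 1 and had a called difference between the responses, and late-only genes were their mirror image. The limit of 0.5 is on size alone, so a change within it can still be called.

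All 10 libraries were poly(A) RNA-seq of whole caudal fin clips from wild-type fish of the outbred Ekkwill (EK) strain, each from a pool of 15 fish, per the labels' protocols, which give ages of 4 to 12 months in one place and 3 to 12 months in another. The groups were injured fins at 4 dpa (2 libraries) and uninjured fins at 0 dpa (2 libraries) in batch 1, and fins labelled 1 dpa and injured (3 libraries) and fins labelled 0 dpa and uninjured (3 libraries) in batch 2. Stage and batch coincide, so a difference between the late and the early response and a difference between the batches cannot be told apart. The titles and the names under which the batch 2 data were deposited contradict each other: by those names the libraries titled 0 dpa are the injured ones. Both readings are therefore given, and each batch 2 group keeps its titled time after the word labelled. The exchange turns the sign of the batch 2 response and leaves its size and its p as they are.

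An amputated zebrafish fin first closes its wound with migrating epidermis, then gathers a blastema of dividing mesenchymal cells at the stump, and then grows out while osteoblasts lay down new bony rays. Early stages are known for injury signals, fibronectin and fibrin-rich matrix and wound keratins, and outgrowth for cell division, collagen and fin fold fibres, patterning by Hedgehog, Fgf, Wnt and retinoic acid signals, and bone matrix.

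The libraries held 19427984 to 38064840 gene counts. The basal keratin gene krt5 was the top gene in all 10 and took 3.53 to 10.3% of the counts. Replicates differed by more than sampling noise in every group, with a chi-square of 14.9 to 60.8 per degree of freedom. Of the fixed markers of the tissue, skin (krt5, krt4, tp63, cdh1), bone (sp7, bglap), connective tissue (col1a2, tph1b), macrophage (mpeg1.1), neutrophil (mpx), melanophore (pmela) and red cell (hbaa1) genes passed the filter on low counts. The muscle gene actc1b did not pass it, and the Schwann cell gene mbpa was not among the genes counted. Levels are given as CPM, counts scaled by TMM to the depth of the library, and differences as log2 fold changes from the edgeR quasi-likelihood test with its standard error (SE) and Benjamini-Hochberg adjusted p.

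Most genes differed between the groups of either batch. In batch 1, 8585 of 12277 genes (69.9%) were called, 4706 of them (38.3%) higher and 3879 (31.6%) lower at 4 dpa. With library size alone as scaling, the batch 1 split was 6302 higher and 2452 lower and the median of all genes 0.43, against 0.07 with TMM, so directions of small changes at 4 dpa are relative to the scaling. In batch 2, 9744 genes (79.4%) were called, 4856 (39.6%) higher and 4888 (39.8%) lower in labelled 1 dpa than in labelled 0 dpa libraries. The shares of both batches are the background for the counts of list members below. At least 2-fold changes were called for 4270 genes (34.8%) in batch 1 and 5208 (42.4%) in batch 2. The response differed between batch 1 and batch 2 for 9939 genes (81.0%) as titled and for 6381 genes (52.0%) exchanged.

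**Figure D1:**
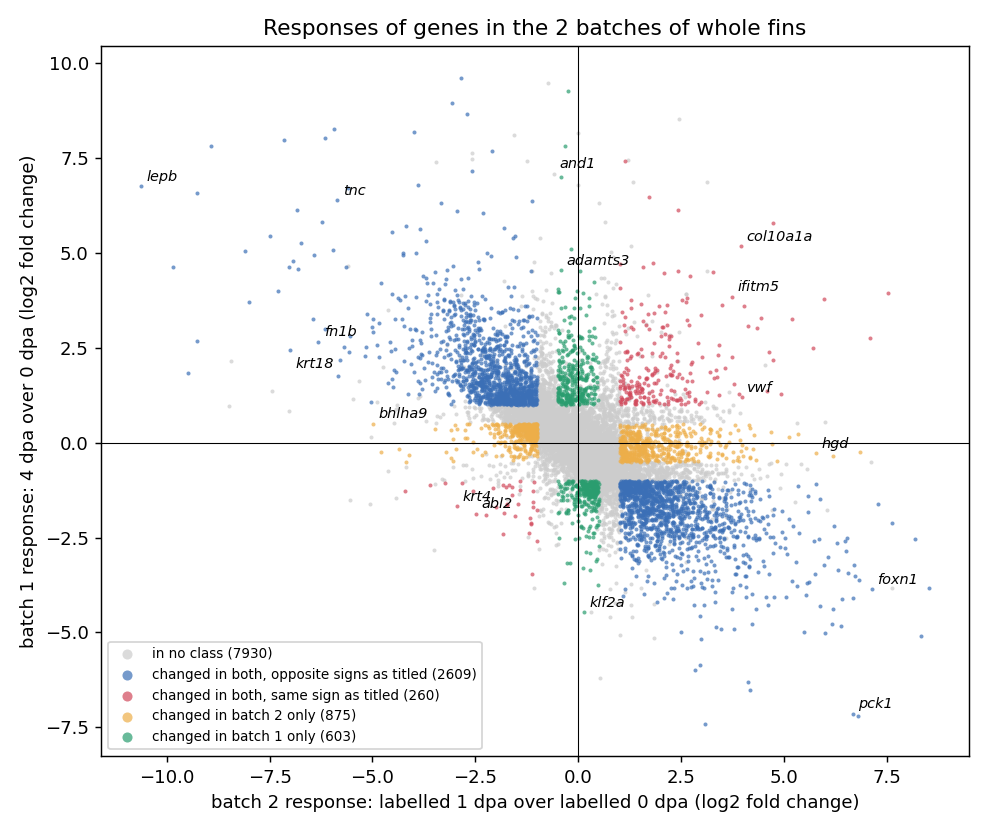
Each point is a gene; the vertical axis gives the log2 fold change of 4 dpa over 0 dpa fins (batch 1) and the horizontal axis that of labelled 1 dpa over labelled 0 dpa fins (batch 2), with colours for the classes as titled. The 2609 genes changed in both batches with opposite signs lie in the upper left and lower right, and the 260 with the same sign in the other corners; exchanging the batch 2 groups mirrors the plot left to right.

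Of the genes changed in both batches, 2609 had opposite signs as titled, 1274 of them higher at 4 dpa and lower in labelled 1 dpa and 1335 lower at 4 dpa and higher in labelled 1 dpa. Exchanged, these 2609 genes are the sustained class. The 260 genes with the same sign as titled, 226 higher and 34 lower, become the opposite class. The early-only and late-only classes rest on the sizes of the responses. The exchange therefore leaves their members in place by definition, apart from the call on the difference of the responses. Both readings shared 833 early-only and 563 late-only genes. The direction of the early-only genes turns with the reading: 510 rose and 365 fell as titled, and 352 rose and 499 fell exchanged. These classes follow from the calls themselves, so their counts describe the split and are no test of it.

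The mean level of a gene in labelled 1 dpa libraries was nearer to its level in 0 dpa fins of batch 1 than the labelled 0 dpa level was for 9210 of 12277 genes (75.0%), on a log2 scale of CPM plus 0.05. The labelled 1 dpa level was nearer to the 4 dpa level for 4463 genes (36.4%). Over all genes the median distance to the 0 dpa fins of batch 1 was 0.33 for labelled 1 dpa and 0.79 for labelled 0 dpa. The median distance to the 4 dpa fins was 0.81 for labelled 1 dpa and 0.48 for labelled 0 dpa.

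The genes higher at 4 dpa and lower in labelled 1 dpa than in labelled 0 dpa included 14 of 33 blastema genes, 4 of 18 wound protease and inhibitor genes and 0 of 25 immediate early and AP-1 genes, against 1274 of all 12277 genes. Leptin b (lepb), a hormone gene induced by fin and heart injury in zebrafish, had 36.9 and 26.3 CPM at 4 dpa against 0.413 and 0.178 CPM at 0 dpa. In batch 2 it had 0, 0.0301 and 0.0289 CPM in labelled 1 dpa libraries against 43.04, 40.05 and 30.3 CPM in labelled 0 dpa libraries. The groups did not overlap in either batch, as the choice of leading genes required. Its log2 fold change was 6.76 (SE 0.36, adjusted p = 6.44e-08) in batch 1, and the labelled 1 dpa libraries held 2 lepb counts against 3872 in the labelled 0 dpa libraries, a 1881-fold lower level with an exact 95% interval of 520 to 15536. Without 0 dpa replicate 1 its batch 1 value was 7.44. Tenascin C (tnc), a matrix protein of healing tissue, had 1087 and 993 CPM at 4 dpa against 13.9 and 11.1 CPM at 0 dpa. In batch 2 tnc had 14.6, 16.4 and 17.1 CPM in labelled 1 dpa libraries against 986, 825 and 967 CPM in labelled 0 dpa libraries. The 4 dpa and the labelled 0 dpa libraries were the high ones, and tnc changed by 6.38 (SE 0.16, adjusted p = 1.5e-10) in batch 1 and -5.85 (SE 0.13, adjusted p = 9.53e-12) in batch 2. In the single libraries of whole fins at 2 dpa over 0 dpa, which took no part in the classes, the log2 ratio of lepb was 10.14 in fins without a named allele and 1.697 in fins with a deletion of LEN, an enhancer near lepb, and that of tnc 6.78 and 6.79.

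Other genes leading this group were cmn, the matrix gene calymmin, gfra3, a co-receptor of the Gdnf ligand family, and dusp13a, a phosphatase gene. cmn changed by 6.56 in batch 1 and -9.26 in batch 2, and by -10.49 in batch 2 without labelled 1 dpa replicate 1. gfra3 had 1016 counts at 4 dpa against 2 at 0 dpa, a 285-fold higher level (exact 95% interval 78.6 to 2353), and 2 counts in labelled 1 dpa against 175 in labelled 0 dpa libraries, an 85-fold lower level (23.2 to 707). dusp13a had 20 counts at 4 dpa against 0 at 0 dpa, at least 3.74-fold higher against a floor of 3 counts over the group. For genes changed in both batches a mean of 5 CPM was needed in 1 batch only, and dusp13a was below it in batch 1. The exact intervals cover counting error only.

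Matrix, keratin and protease genes were in the same group. Fibronectin 1b (fn1b), a matrix protein of wounds, had 2371 and 2832 CPM at 4 dpa against 466 and 358 CPM at 0 dpa. In batch 2 fn1b had 390.1, 365 and 423 CPM in labelled 1 dpa libraries against 32096, 33292 and 28776 CPM in labelled 0 dpa libraries. Its level in labelled 0 dpa fins was above that of every other group, and it changed by 2.66 (SE 0.16, adjusted p = 6.61e-08) in batch 1 and -6.32 (SE 0.16, adjusted p = 2.51e-11) in batch 2. The simple epithelial keratin gene krt18 had 1753 and 1631 CPM at 4 dpa against 320.2 and 300.3 CPM at 0 dpa, and 201, 233 and 209.8 CPM in labelled 1 dpa libraries against 28671, 28703 and 25618 CPM in labelled 0 dpa libraries. The 4 groups of krt18 did not overlap, and its log2 fold changes were 2.45 and -7.01. The paralogue fn1a changed by 2.57 in batch 1 and -4.88 in batch 2, and the membrane protease gene adam8a by 5.45 and -7.499.

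Several genes of signals known to start or pattern the regenerate were also in this group. fgf20a, the Fgf ligand needed to form a fin blastema in zebrafish, had 4.38 and 4.73 CPM at 4 dpa against 0.981 and 1.69 CPM at 0 dpa. In batch 2 fgf20a had 0.407, 0.451 and 0.375 CPM in labelled 1 dpa libraries against 23.1, 27.2 and 21.00 CPM in labelled 0 dpa libraries. It was highest in the labelled 0 dpa libraries and lowest in the labelled 1 dpa libraries. The activin subunit gene inhbaa changed by 1.46 (SE 0.23, adjusted p = 0.000319) in batch 1 and -4.51 (SE 0.20, adjusted p = 2.36e-08) in batch 2. aldh1a2, which makes retinoic acid, changed by 2.76 (SE 0.11, adjusted p = 2.5e-09) and -2.17 (SE 0.08, adjusted p = 3.6e-10). The Hedgehog ligand gene shha changed by 3.83 in batch 1 and -3.93 in batch 2, where its level was at most 1.18 CPM, and by -4.87 in batch 2 without labelled 1 dpa replicate 1. The Wnt ligand gene wnt5b changed by 1.58 and -1.01, and lef1, a transcription factor of the Wnt pathway, by 3.48 and -3.29. The ligand genes wnt10a (0.61 and -1.11) and igf2b (0.55 and -2.64) had the same signs but missed the 2-fold limit in batch 1 and are in no class.

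All 45 cell cycle genes tested rose at 4 dpa, and all 45 were lower in labelled 1 dpa than in labelled 0 dpa libraries, with medians of 2.37 in batch 1 and -2.62 in batch 2. Of the 45, 43 changed at least 2-fold in both batches, against 1274 of all 12277 genes in these directions. mki67, a marker of dividing cells, had 266 and 235 CPM at 4 dpa against 28.3 and 20.3 CPM at 0 dpa, and 39.6, 23.6 and 34.01 CPM in labelled 1 dpa libraries against 195, 217 and 214 CPM in labelled 0 dpa libraries. Its labelled 0 dpa levels lay just under the 4 dpa levels, and those of 0 dpa and labelled 1 dpa fins overlapped. The mitotic kinase gene aurka changed by 4.496 in batch 1 and -3.49 in batch 2, the survivin gene birc5a by 3.25 and -3.25, and the histone chaperone gene chaf1b by 2.25 and -2.74. Beside these, the median of all 12277 genes was 0.07 in batch 1 and 0.02 in batch 2.

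Of 33 blastema genes, 29 rose and 1 fell at 4 dpa, and 9 were higher and 21 lower in labelled 1 dpa than in labelled 0 dpa libraries. The medians of the blastema genes were 2.06 in batch 1 and -0.59 in batch 2. The midkine gene mdka, a secreted growth factor, changed by 3.89 and -3.64. Of 36 genes of protein secretion and collagen processing, 32 rose at 4 dpa and 30 were lower in labelled 1 dpa. In this way 19 changed at least 2-fold in both batches, against 1274 of all 12277 genes. The prolyl isomerase gene fkbp9 changed by 4.21 and -3.67, and the collagen chaperone gene serpinh1b by 3.79 and -2.25. With library size alone, 55 of 60 mitochondrial respiration genes rose at 4 dpa and 54 were lower in labelled 1 dpa. With TMM 39 rose and 58 were lower, with medians of 0.42 in batch 1 and -0.90 in batch 2. In this way 4 of the 60 changed at least 2-fold in both batches, a smaller share than the 1274 of all 12277 genes. The cytochrome oxidase subunit gene cox7a2a changed by 1.73 and -2.19.

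The 1335 genes lower at 4 dpa and higher in labelled 1 dpa than in labelled 0 dpa included enzyme, skin and glial genes. The lipocalin-type prostaglandin D synthase gene ptgdsb had 555 and 551 CPM at 4 dpa against 10519 and 11259 CPM at 0 dpa. In batch 2 ptgdsb had 8540.3, 8523 and 9170.2 CPM in labelled 1 dpa libraries against 141, 167 and 141 CPM in labelled 0 dpa libraries. The 0 dpa and labelled 1 dpa libraries were high and the 4 dpa and labelled 0 dpa libraries low, and it changed by -4.300 (SE 0.14, adjusted p = 7.87e-10) in batch 1 and 5.87 (SE 0.12, adjusted p = 5.8e-12) in batch 2. foxn1, a transcription factor of skin and thymus epithelium, had 1.89 and 1.41 CPM at 4 dpa against 25.2 and 22.6 CPM at 0 dpa, and 17.98, 18.7 and 17.96 CPM in labelled 1 dpa libraries against 0.183, 0.173 and 0.0283 CPM in labelled 0 dpa libraries. The log2 fold changes of foxn1 were -3.85 and 7.13. pck1, a gluconeogenesis enzyme, changed by -7.14 in batch 1 and 6.66 in batch 2, or 7.77 without labelled 0 dpa replicate 2. The proteolipid gene plp1b, whose mammalian relative is a myelin protein, changed by -4.12 and 6.39, and the tetraspanin gene tspan7b by -4.07 and 4.55.

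Of the immune, pigment and glial lists, this group held 13 of 42 leukocyte, 8 of 25 pigment cell, 7 of 25 nerve and glia and 5 of 32 interferon response genes, against 1335 of all 12277 genes. Of 42 leukocyte genes, 8 rose and 23 fell at 4 dpa with TMM, against 11 and 19 with library size alone, and 29 were higher and 6 lower in labelled 1 dpa, with medians of -0.67 in batch 1 and 1.21 in batch 2. Their summed level was 2183 to 2191 CPM at 4 dpa and 5275 to 6550.0 CPM at 0 dpa, and 8204 to 9116 CPM in labelled 1 dpa and 1101 to 1456 CPM in labelled 0 dpa libraries. In whole fin clips fewer cells of a type and less RNA per cell cannot be told apart. The chemokine gene ccl27b changed by -3.52 in batch 1 and 6.73 in batch 2, ccl19b by -4.896 and 3.46, and il7r, a lymphocyte cytokine receptor, by -2.496 and 3.82. Of 25 pigment cell genes, 11 fell and 2 rose at 4 dpa with TMM, against 7 and 5 with library size alone, and 19 were higher and 2 lower in labelled 1 dpa, and the melanophore receptor gene kita changed by -1.86 and 2.05. Of 25 nerve and glia genes, 14 fell and 6 rose at 4 dpa with TMM, against 12 and 8 with library size alone. In batch 2 17 were higher and 6 lower in labelled 1 dpa, with medians of -0.83 in batch 1 and 0.82 in batch 2. Of 32 interferon response genes, 12 fell and 6 rose at 4 dpa with TMM, against 9 each with library size alone and 13 and 3 with DESeq2's size factors, and 18 were higher and 4 lower in labelled 1 dpa. rbp4, the retinol carrier, changed by -3.26 and 4.52. bglap, the osteocalcin gene of mature osteoblasts, changed by -1.12 and 4.17.

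**Figure D2:**
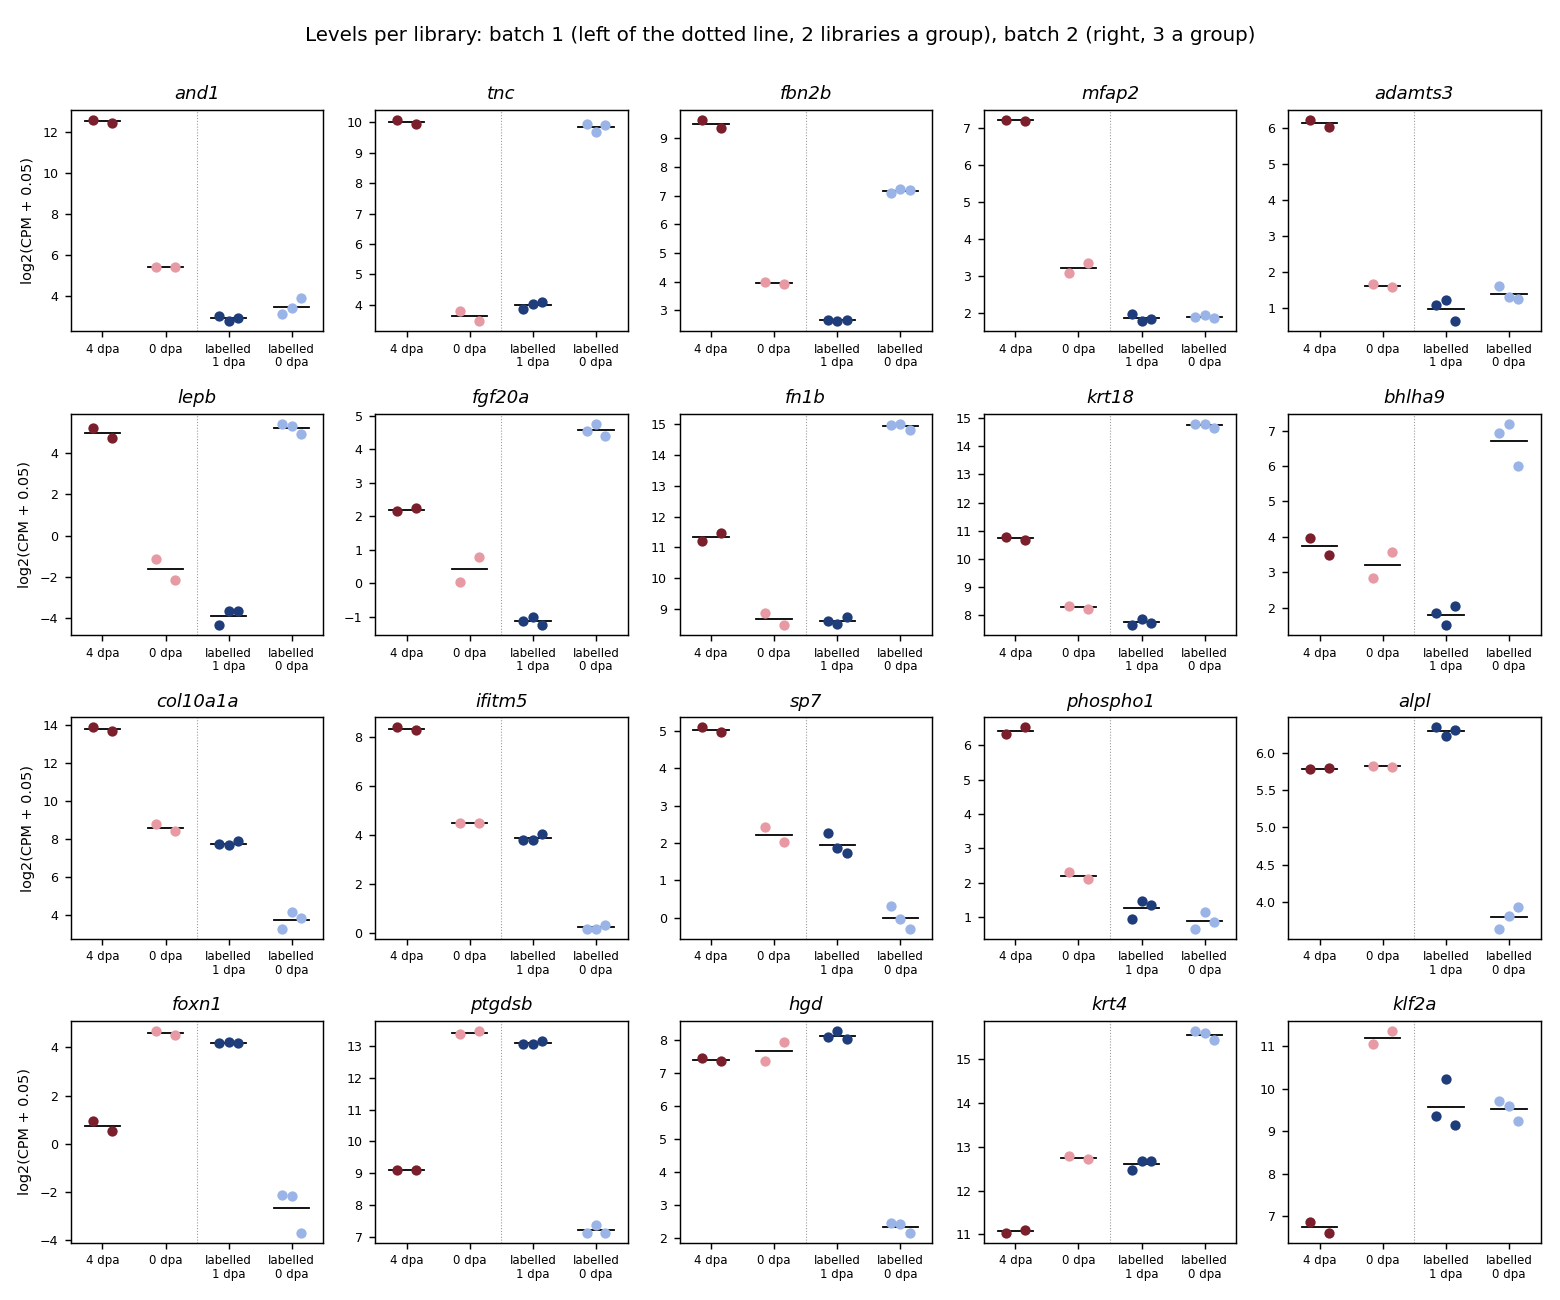
Levels of 20 genes as log2(CPM + 0.05) in each library, with 4 dpa and 0 dpa fins of batch 1 left of the dotted line and labelled 1 dpa and labelled 0 dpa fins of batch 2 right of it; points are libraries and bars group means. tnc, lepb and fgf20a are high in the 4 dpa and labelled 0 dpa libraries, foxn1 and ptgdsb low in both, col10a1a and ifitm5 lowest in the labelled 0 dpa libraries, and mfap2 and adamts3 high at 4 dpa only.

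Where the signs were opposite as titled, the sizes of the 2 responses can be set against each other by the exchanged difference. Of the 1274 genes higher at 4 dpa, the change was larger in batch 1 for 153 (12%), larger in batch 2 for 466 (36.6%) and not called different for 655 (51.4%). Of the 1335 genes lower at 4 dpa it was larger in batch 1 for 94 (7.04%), in batch 2 for 395 (29.6%) and not called different for 846 (63.4%). Genes with the larger change in batch 2 included fn1b (adjusted p of the exchanged difference 8.78e-08), krt18 (4.72e-09) and fgf20a (2.08e-06). The microfibril gene fbn2b, at 5.56 in batch 1 and -4.52 in batch 2, and the secreted Wnt regulator gene dkk3b, at 3.501 and -1.79, had the larger change in batch 1 (5.89e-05 and 2.04e-07). For lef1, mdka and birc5a the exchanged difference was not called (adjusted p = 0.326, 0.165 and 0.989 in the edgeR fit).

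Genes higher at 4 dpa and also higher in labelled 1 dpa than in labelled 0 dpa, 226 in all, included bone and matrix genes. The bone collagen gene col10a1a had 14731 and 12914 CPM at 4 dpa against 435 and 334 CPM at 0 dpa. In batch 2 col10a1a had 209, 199.9 and 231 CPM in labelled 1 dpa libraries against 9.56, 17.4 and 14.1 CPM in labelled 0 dpa libraries. The labelled 0 dpa fins were the lowest of all 4, and the log2 fold changes were 5.17 (SE 0.26, adjusted p = 3.55e-08) in batch 1 and 3.96 (SE 0.21, adjusted p = 1.18e-08) in batch 2. ifitm5, an osteoblast membrane protein gene in mammals, had 339.5 and 313 CPM at 4 dpa against 22.6 and 22.7 CPM at 0 dpa, and 13.7, 13.9 and 16.4 CPM in labelled 1 dpa libraries against 1.07, 1.06 and 1.19 CPM in labelled 0 dpa libraries. ifitm5 changed by 3.85 (SE 0.10, adjusted p = 1.89e-10) in batch 1 and 3.72 (SE 0.11, adjusted p = 6.48e-11) in batch 2. sp7, the transcription factor of osteoblast commitment, had 34.2 and 31.2 CPM at 4 dpa against 5.32 and 4.04 CPM at 0 dpa, and 4.73, 3.61 and 3.26 CPM in labelled 1 dpa libraries against 1.19, 0.921 and 0.765 CPM in labelled 0 dpa libraries. The 0 dpa and labelled 1 dpa levels of sp7 overlapped, and the log2 fold changes were 2.81 (SE 0.19, adjusted p = 1.44e-07) and 2.01 (SE 0.20, adjusted p = 1.54e-06). sgms2, a sphingomyelin synthase, changed by 4.48 and 3.26.

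2 of the 5 leading genes had no count in the labelled 0 dpa libraries. The endothelin receptor gene ednrab changed by 5.79 in batch 1, and had 10 counts in labelled 1 dpa against 0 in labelled 0 dpa libraries, at least 3.43-fold higher. The proteoglycan gene fmoda changed by 3.95 in batch 1, and had 71 counts in labelled 1 dpa against 0 in labelled 0 dpa libraries, at least 24.4-fold higher. Both bounds use a floor of 3 counts over the group. Of 22 osteoblast and bone matrix genes, 17 rose and 2 fell at 4 dpa, and 11 were higher and 6 lower in labelled 1 dpa, with medians of 1.75 in batch 1 and 0.52 in batch 2. 5 of them were among the 226, and 4 had opposite signs as titled, 3 of these higher at 4 dpa. Among all 12277 genes, 226 and 2609 were in these 2 groups. Of 36 extracellular matrix genes, 30 rose and 3 fell at 4 dpa, and 20 were higher and 8 lower in labelled 1 dpa. Among these 36, 8 were among the 226 and 10 had opposite signs as titled, 7 of them higher at 4 dpa. Of 45 patterning and ray joint factors, 30 rose and 4 fell at 4 dpa with TMM, against 34 and 1 with library size alone. In batch 2 25 were higher and 8 lower in labelled 1 dpa, with medians of 0.82 in batch 1 and 0.51 in batch 2. 7 of these factors were among the 226 and 0 in the opposite group, and the paired-box factor gene pax9 changed by 1.41 and 1.55. The von Willebrand factor gene vwf, of vessel lining and platelets, changed by 1.196 and 3.97.

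The 34 genes lower at 4 dpa and lower in labelled 1 dpa than in labelled 0 dpa included keratin, desmosome and stress factor genes. The surface keratin gene krt4 had 2105 and 2209 CPM at 4 dpa against 7035 and 6796 CPM at 0 dpa. In batch 2 krt4 had 5671, 6594 and 6512 CPM in labelled 1 dpa libraries against 51188, 49714 and 44859 CPM in labelled 0 dpa libraries. The labelled 0 dpa libraries were the highest of all and the 4 dpa libraries the lowest, and krt4 changed by -1.68 (SE 0.13, adjusted p = 4.32e-07) in batch 1 and -2.96 (SE 0.11, adjusted p = 4.21e-10) in batch 2. The desmosomal cadherin gene dsg2.1 changed by -1.65 and -1.74, the tyrosine kinase gene abl2 by -1.88 and -2.48, and the stress transcription factor gene atf3 by -1.86 and -1.81. The AP-1 subunit gene fosl1a had 1.699 and 1.15 CPM at 4 dpa against 5.58 and 9.504 CPM at 0 dpa, and 10.4, 12.5 and 7.74 CPM in labelled 1 dpa libraries against 63.8, 27.6 and 17.5 CPM in labelled 0 dpa libraries. Its batch 1 value of -2.42 (SE 0.80, adjusted p = 0.0279) lost its call without any 1 of the 4 batch 1 libraries, at adjusted p of 0.0564 and 0.18 without 0 dpa replicate 1 and 2 and of 0.0746 and 0.116 without 4 dpa replicate 1 and 2. Its batch 2 value of -1.82 was -1.14 without labelled 0 dpa replicate 1. Of 25 immediate early and AP-1 genes, 2 were among these 34, against 34 of all 12277 genes. Another 8 were lower at 4 dpa and higher in labelled 1 dpa, against 1335 of all 12277 genes. Of 51 epidermis genes, 6 were among these 34, against 34 of all 12277 genes. Another 10 were in the group lower at 4 dpa and higher in labelled 1 dpa, and 4 in its reverse. In all, 37 epidermis genes fell and 8 rose at 4 dpa with TMM, against 33 and 12 with library size alone. In batch 2 18 epidermis genes were higher and 23 lower in labelled 1 dpa. Their medians were -1.12 in batch 1 and -0.05 in batch 2, or 0.10 in batch 2 with library size alone.

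The early-only class held 510 genes higher and 365 genes lower in labelled 1 dpa than in labelled 0 dpa. Its leading genes on the higher side included enzymes that break down phenylalanine and tyrosine. Homogentisate dioxygenase (hgd) had 173 and 163 CPM at 4 dpa against 164 and 245 CPM at 0 dpa. In batch 2 hgd had 269, 305 and 259 CPM in labelled 1 dpa libraries against 5.41, 5.29 and 4.42 CPM in labelled 0 dpa libraries. The labelled 0 dpa libraries were far below all others, and hgd was at -0.29 (SE 0.16, adjusted p = 0.14) in batch 1 and changed by 5.78 (SE 0.17, adjusted p = 2.67e-10) in batch 2. Its batch 1 value was -0.55, past the limit of the class, without 0 dpa replicate 1. Phenylalanine hydroxylase (pah) changed by -0.48 in batch 1, just inside the limit, and 4.82 (SE 0.10, adjusted p = 7.32e-12) in batch 2. Its fall in batch 1 was called. The batch 1 value of pah was -0.11 (adjusted p = 0.39) with library size alone, and past the limit with DESeq2 or its size factors (-0.55 in both), in batch 1 on its own (-0.57) and without 0 dpa replicate 1 (-0.54), 4 dpa replicate 1 (-0.51) or labelled 0 dpa replicate 3 (-0.55). irg1l, a relative of the itaconate enzyme gene, had 12.96 and 16.8 CPM at 4 dpa against 25.2 and 10.4 CPM at 0 dpa, and 535, 581 and 528 CPM in labelled 1 dpa libraries against 3.88, 8.92 and 1.47 CPM in labelled 0 dpa libraries. The labelled 1 dpa libraries were the high ones here, and those of batch 1 overlapped. irg1l changed by 6.85 (SE 0.65, adjusted p = 2.73e-05) in batch 2, or 7.69 without labelled 0 dpa replicate 2. Its batch 1 value of -0.25 (SE 0.65) was 0.51 without 0 dpa replicate 1 and -0.76 without 0 dpa replicate 2, both past the limit and of opposite sign. The cytochrome oxidase subunit gene cox4i2 was at 0.22 in batch 1 and 5.34 in batch 2, and the selenium carrier gene sepp1a at -0.02 and 4.698. With library size alone the batch 1 values were called, at 0.59 for cox4i2 (adjusted p = 0.00149), past the limit, and 0.34 for sepp1a (adjusted p = 0.0362). Without 0 dpa replicate 2 cox4i2 was at 0.41 in batch 1 (adjusted p = 0.0347).

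On the lower side, bhlha9, a helix-loop-helix factor gene whose human copy is tied to limb malformations, had 15.8 and 11.2 CPM at 4 dpa against 7.07 and 11.9 CPM at 0 dpa. In batch 2 bhlha9 had 3.57, 2.83 and 4.07 CPM in labelled 1 dpa libraries against 122, 147 and 63.6 CPM in labelled 0 dpa libraries. The batch 1 groups overlapped, the labelled 0 dpa libraries were the highest of all, and bhlha9 changed by -4.98 (SE 0.40, adjusted p = 8.61e-06) in batch 2. Its batch 1 value of 0.49 was just inside the limit of the class, and past it at 0.87 with library size alone, 0.93 without 0 dpa replicate 2 and 0.72 without 4 dpa replicate 2. The hyaluronan synthase gene has1 had 7.59 and 4.18 CPM at 4 dpa against 6.76 and 7.11 CPM at 0 dpa, and 1.32, 1.38 and 1.33 CPM in labelled 1 dpa libraries against 48.4, 41.7 and 22.6 CPM in labelled 0 dpa libraries. has1 changed by -4.801 (SE 0.37, adjusted p = 3.08e-06) in batch 2 and its batch 1 groups overlapped. Its batch 1 value was -0.24, and -0.73 without 4 dpa replicate 1, past the limit. scpp8, of the secreted calcium-binding phosphoproteins, changed by -4.35 in batch 2, or -3.55 without labelled 0 dpa replicate 1. In batch 1 it was at -0.16, and at -0.65 without 4 dpa replicate 2, past the limit. filip1l, a filamin-binding protein gene, changed by -4.102 and btr29 by -3.21. In batch 1 filip1l was at -0.32, and at -0.63 (adjusted p = 0.045) without 0 dpa replicate 2, past the limit of the class. The collagenase gene mmp13a, in no class, had 12.7 and 13.8 CPM at 4 dpa against 7.38 and 6.08 CPM at 0 dpa, and 2.66, 2.56 and 3.49 CPM in labelled 1 dpa libraries against 93.3, 52.9 and 40.04 CPM in labelled 0 dpa libraries. It changed by -4.41 (SE 0.35, adjusted p = 5e-06) in batch 2, and its batch 1 value of 0.98 (SE 0.40, adjusted p = 0.0593) was not called. With library size alone the batch 1 value was 1.34 (adjusted p = 0.00984), called and past the 2-fold limit. It was also called with DESeq2 (0.91, adjusted p = 0.00571) and in batch 1 on its own (0.88, adjusted p = 0.00101). Without labelled 0 dpa replicate 1 it was 0.98 (adjusted p = 0.0005), and without replicate 3 0.90 (adjusted p = 0.0152).

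By list, the early-only class held 6 of 33 vessel genes, 4 of 25 pigment cell genes and 5 of 51 Wnt pathway genes on its higher side. On its lower side it held 6 of 36 glycolysis and hypoxia genes and 6 of 60 mitochondrial respiration genes. Of all 12277 genes, 510 were on the higher and 365 on the lower side. The bone phosphatase gene alpl had 55.04 and 55.4 CPM at 4 dpa against 56.7 and 56.1 CPM at 0 dpa, and 81.1, 75.1 and 78.96 CPM in labelled 1 dpa libraries against 12.4, 13.98 and 15.1 CPM in labelled 0 dpa libraries. Its batch 1 groups differed by -0.03, or 0.33 (adjusted p = 0.034) with library size alone, and it changed by 2.501 (SE 0.08, adjusted p = 1.17e-10) in batch 2. The iridophore receptor kinase gene ltk was at -0.07 in batch 1 and changed by 2.22 in batch 2.

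The late-only class held 326 genes higher and 277 lower at 4 dpa. Its higher side included genes that build collagen and elastic fibres. adamts3, a protease that trims procollagen in mammals, had 75.3 and 65.2 CPM at 4 dpa against 3.098 and 2.93 CPM at 0 dpa. In batch 2 adamts3 had 2.07, 2.25 and 1.501 CPM in labelled 1 dpa libraries against 3.02, 2.42 and 2.32 CPM in labelled 0 dpa libraries. The 4 dpa libraries alone stood high, and adamts3 changed by 4.54 (SE 0.17, adjusted p = 2.43e-09) in batch 1 and -0.41 (SE 0.16, adjusted p = 0.0344) in batch 2. Its batch 2 value was -0.54, past the limit of the class, without labelled 1 dpa replicate 2. It was no longer called with library size alone (-0.26), in batch 2 on its own (-0.36), or without labelled 0 dpa replicate 1 (-0.29), labelled 1 dpa replicate 3 (-0.25) or either 4 dpa library (-0.38 in both). The microfibril gene mfap2 had 149.7 and 146 CPM at 4 dpa against 8.36 and 10.1 CPM at 0 dpa, and 3.88, 3.397 and 3.49 CPM in labelled 1 dpa libraries against 3.64, 3.798 and 3.63 CPM in labelled 0 dpa libraries. The batch 2 groups of mfap2 overlapped, and it changed by 3.997 (SE 0.11, adjusted p = 1.89e-10) in batch 1. The lysyl hydroxylase gene plod1a changed by 4.05 in batch 1 and -0.49 in batch 2, and fam46bb by 3.97 and -0.49. Both batch 2 values were called, and were just inside the limit. Past it, plod1a was at -0.58 without labelled 0 dpa replicate 1 and -0.52 without labelled 1 dpa replicate 1, and fam46bb at -0.53 without labelled 0 dpa replicate 2 and -0.62 without labelled 1 dpa replicate 2. phospho1, a phosphatase of bone mineralisation, changed by 4.24 in batch 1 and was at 0.38 in batch 2, and past the limit with library size alone (0.53) or without labelled 0 dpa replicate 2 (0.53) or labelled 1 dpa replicate 1 (0.52). The procollagen protease gene bmp1a changed by 3.22 in batch 1 and was at -0.34 in batch 2, and the blastema homeobox factor gene msxb by 1.81 and at 0.24. Both batch 2 values were called. The bmp1a call was lost with library size alone, and that of msxb without labelled 0 dpa or labelled 1 dpa replicate 1. The mesenchymal homeobox factor gene prrx1b changed by 2.85 and was at -0.18, and the vessel growth factor gene angpt2b by 3.61 and at 0.27, neither called in batch 2. However, prrx1b was called in batch 2 without labelled 0 dpa replicate 1 (-0.24, adjusted p = 0.0402), and angpt2b with library size alone (0.42, adjusted p = 0.0333).

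The fin fold fibre gene and1 (actinodin 1) rose strongly at 4 dpa but was in no class. It had 6118 and 5541 CPM at 4 dpa against 43.2 and 42.6 CPM at 0 dpa, and 8.21, 6.85 and 7.56 CPM in labelled 1 dpa libraries against 8.58, 10.5 and 14.9 CPM in labelled 0 dpa libraries. It changed by 7.09 (SE 0.25, adjusted p = 2.5e-09) in batch 1 and -0.59 (SE 0.17, adjusted p = 0.00812) in batch 2, past the limit of 0.5, or -0.45 with library size alone and -0.32 without labelled 0 dpa replicate 3, both inside it. By list, the higher side of the late-only class held 9 of 36 extracellular matrix genes, 8 of 33 vessel genes, 7 of 47 Hedgehog and Bmp genes and 5 of 33 blastema genes. Of the vessel genes 26 rose and 3 fell at 4 dpa, and 15 were higher and 9 lower in labelled 1 dpa (19 and 7 with library size alone), with medians of 0.89 in batch 1 and 0.27 in batch 2. Of all 12277 genes, 326 were on this side.

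The lower side of the late-only class was led by klf2a, a Krüppel-like transcription factor gene of blood flow and quiescence in vessels, which had 116 and 97.5 CPM at 4 dpa against 2124 and 2619.6 CPM at 0 dpa. In batch 2 klf2a had 659, 1199 and 569 CPM in labelled 1 dpa libraries against 839, 768 and 608 CPM in labelled 0 dpa libraries. The batch 2 groups overlapped, and klf2a changed by -4.47 (SE 0.38, adjusted p = 9.5e-06) in batch 1. The kinase genes pim1 and snrkb changed by -3.35 and -3.31 in batch 1, and the purine enzyme gene pnp5a by -3.17. The retinol receptor gene stra6 changed by -3.697 in batch 1, or -2.47 without 0 dpa replicate 1 and -4.37 without 0 dpa replicate 2. Its batch 2 value was -0.34, and -0.56 without labelled 0 dpa replicate 3, past the limit. krt5 had 33525 and 29171 CPM at 4 dpa against 92334 and 115907 CPM at 0 dpa, and 89782, 101408 and 99091 CPM in labelled 1 dpa libraries against 72667, 78044 and 73731 CPM in labelled 0 dpa libraries. It changed by -1.73 (SE 0.16, adjusted p = 1.53e-06) in batch 1. Its batch 2 value of 0.37 was called, but not with the replicate block (0.37, adjusted p = 0.064). The call was also lost without labelled 0 dpa replicate 1 (0.35, adjusted p = 0.0662) or 3 (0.38, adjusted p = 0.0602). The same held without labelled 1 dpa replicate 2 (0.34, adjusted p = 0.0599) or 3 (0.36, adjusted p = 0.0516). With library size alone the batch 2 value of krt5 was 0.52, past the limit. The neutrophil enzyme gene mpx changed by -1.26 in batch 1 and was at 0.35 in batch 2, or 0.50 without labelled 1 dpa replicate 2. Of 75 cytosolic ribosomal protein genes, 73 fell and 0 rose at 4 dpa and 47 were late-only. In batch 2 36 of them were higher and 0 lower in labelled 1 dpa, and 65 were higher with library size alone. Their medians were -1.10 in batch 1 and 0.26 in batch 2. Their summed level was 81994 to 83619 CPM at 4 dpa and 150131 to 209498 CPM at 0 dpa, and 120320.0 to 131723 CPM in labelled 1 dpa and 103208 to 107791 CPM in labelled 0 dpa libraries. Of 51 epidermis genes, 8 were on this side, which held 277 of all 12277 genes.

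**Figure D3:**
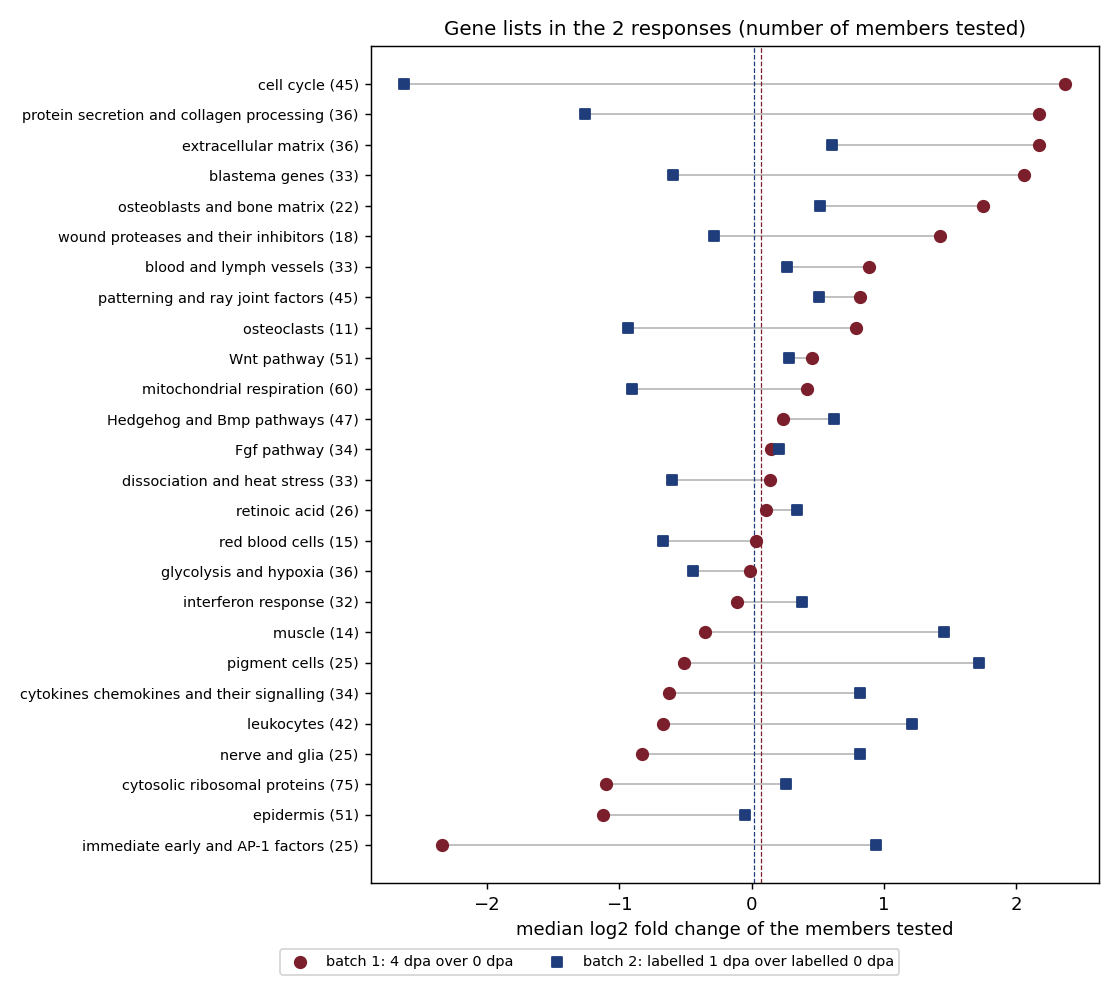
Median log2 fold change of the tested members of 26 gene lists, with circles for 4 dpa over 0 dpa fins (batch 1) and squares for labelled 1 dpa over labelled 0 dpa fins (batch 2); dashed lines mark the medians of all 12277 genes. The cell cycle list has the widest gap, 2.37 in batch 1 and -2.62 in batch 2. Both medians are above 0 for the bone, extracellular matrix, vessel, patterning, Wnt, Fgf, Hedgehog and Bmp, and retinoic acid lists.

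Among all 12277 genes, 4706 (38.3%) rose and 3879 (31.6%) fell at 4 dpa with TMM, against 6302 and 2452 with library size alone. In batch 2, 4856 (39.6%) were higher and 4888 (39.8%) lower in labelled 1 dpa, against 5382 and 4162 with library size alone. Most immediate early and AP-1 genes fell at 4 dpa. Of 25 immediate early and AP-1 genes, 19 fell and 2 rose at 4 dpa, and 12 were higher and 5 lower in labelled 1 dpa, with medians of -2.34 in batch 1 and 0.94 in batch 2. The AP-1 subunit gene junbb was at -0.64 (SE 0.33, adjusted p = 0.122) in batch 1, or -0.72 (adjusted p = 0.0307) without labelled 0 dpa replicate 3, and at 0.44 (SE 0.27, adjusted p = 0.169) in batch 2. Of 34 cytokine and chemokine genes, 20 fell and 5 rose at 4 dpa with TMM, against 14 and 5 with library size alone. In batch 2 19 were higher and 11 lower in labelled 1 dpa, with medians of -0.62 in batch 1 and 0.82 in batch 2. The cytokine gene il1b was at 0.25 (SE 0.39, adjusted p = 0.593) in batch 1 and -0.55 (SE 0.31, adjusted p = 0.129) in batch 2. The batch 2 value of il1b was called without labelled 0 dpa replicate 3 (-0.79, adjusted p = 0.00839) and with the replicate block (-0.50, adjusted p = 0.0379). It shrank to -0.17 (adjusted p = 0.527) without labelled 0 dpa replicate 1. Without labelled 1 dpa replicate 2 (adjusted p = 0.321) and with library size alone (adjusted p = 0.233) it was -0.39. Of 18 wound protease and inhibitor genes, 13 rose and 3 fell at 4 dpa, and 7 were higher and 10 lower in labelled 1 dpa, and the gelatinase gene mmp9 changed by 1.28 (SE 0.26, adjusted p = 0.00222) and -0.93 (SE 0.21, adjusted p = 0.00326). Of 34 Fgf pathway genes, 16 rose and 9 fell at 4 dpa with TMM, against 21 and 4 with library size alone, and 14 were higher and 8 lower in labelled 1 dpa, with medians of 0.15 in batch 1 and 0.21 in batch 2. Of 26 retinoic acid genes 9 rose and 9 fell with TMM, near the shares of all genes, against 14 and 6 with library size alone. In labelled 1 dpa 12 of them were higher and 5 lower (13 and 3 with library size alone), with medians of 0.11 in batch 1 and 0.34 in batch 2. Of 47 Hedgehog and Bmp genes 20 rose and 14 fell with TMM, against 30 and 5 with library size alone, and 29 were higher and 9 lower in labelled 1 dpa, with medians of 0.24 in batch 1 and 0.62 in batch 2.

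For the lists that follow, the shares of all 12277 genes with TMM were 38.3% higher and 31.6% lower at 4 dpa. In batch 2 they were 39.6% higher and 39.8% lower in labelled 1 dpa. Of 51 Wnt pathway genes 26 rose and 10 fell at 4 dpa with TMM, against 33 and 10 with library size alone. In batch 2 27 were higher and 16 lower in labelled 1 dpa, with medians of 0.46 in batch 1 and 0.28 in batch 2. Of 11 osteoclast genes 7 rose and 3 fell at 4 dpa with TMM, against 7 and 1 with library size alone, and 3 were higher and 6 lower in labelled 1 dpa, with medians of 0.79 in batch 1 and -0.93 in batch 2. Of 33 dissociation and heat stress genes 15 rose and 11 fell at 4 dpa with TMM, against 17 and 8 with library size alone, and 9 were higher and 22 lower in labelled 1 dpa, with medians of 0.14 in batch 1 and -0.60 in batch 2. Their summed level was 11153 to 11885 CPM at 4 dpa, 9964 to 11665 CPM at 0 dpa, 11160.0 to 11873 CPM in labelled 1 dpa and 16174 to 16582 CPM in labelled 0 dpa libraries, and its part in the other differences was not tested. Of 36 glycolysis and hypoxia genes 14 rose and 12 fell at 4 dpa with TMM, near the shares of all genes. With DESeq2's size factors 12 rose and 15 fell, and with library size alone 16 rose and 9 fell. In batch 2 8 were higher and 18 lower in labelled 1 dpa, with medians of -0.01 in batch 1 and -0.44 in batch 2. Of 15 red blood cell genes 3 rose and 1 fell at 4 dpa with TMM, against 4 and 0 with library size alone and 3 and 2 with DESeq2's size factors, and 3 were higher and 5 lower in labelled 1 dpa, with medians of 0.03 in batch 1 and -0.67 in batch 2. Of 14 muscle genes 4 rose and 4 fell, and 7 were higher and 2 lower in labelled 1 dpa, with medians of -0.35 in batch 1 and 1.45 in batch 2. The batch 1 medians of the glycolysis and muscle lists were 0.35 and 0.02 with library size alone, and that of the red blood cell list -0.04 with DESeq2's size factors.

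The classes were then followed in libraries of the series that had no part in their definition, first batch 3 whole fins at 2 dpa over 0 dpa, with 1 library per time in fins titled whole fin and in fins titled LEN deletion, and so no test. At least 2-fold in both genotypes, 1195 of 11732 genes with a value (10.2%) were higher and 1515 (12.9%) lower. Of the genes higher at 4 dpa and lower in labelled 1 dpa, 697 of 1258 (55.4%) were higher at 2 dpa and 1 was lower. Of the genes lower at 4 dpa and higher in labelled 1 dpa, 838 of 1241 (67.5%) were lower at 2 dpa and 4 were higher. Of the 226 genes higher in both as titled, 192 had a value, and 17 (8.85%) were higher and 34 (17.7%) lower at 2 dpa. Of the 34 genes lower in both as titled, 7 of 33 (21.2%) were higher and 1 (3.03%) lower at 2 dpa. Of the early-only genes higher in labelled 1 dpa, 129 of 489 (26.4%) were lower and 4 higher at 2 dpa, and of those lower in labelled 1 dpa, 40 of 363 (11%) were higher and 0 lower. Of the late-only genes, 103 of 310 (33.2%) on the higher side were higher at 2 dpa and 3 lower. On the lower side 52 of 272 (19.1%) were lower and 0 higher.

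The leading genes of several classes had large ratios at 2 dpa. The log2 ratio of bhlha9 was 5.34 in fins without the deletion and 5.403 in LEN deletion fins, that of fgf20a 5.45 and 5.77, and that of krt18 4.34 and 5.18. hgd was at -4.19 and -3.91, and pah at -4.52 and -4.14. krt4 was at 0.92 and 1.43, above 0, while it fell at 4 dpa. ifitm5 was at -1.76 and -1.37 at 2 dpa, below 0, while it rose at 4 dpa, and vwf was at -1.99 and -2.198.

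**Figure D4:**
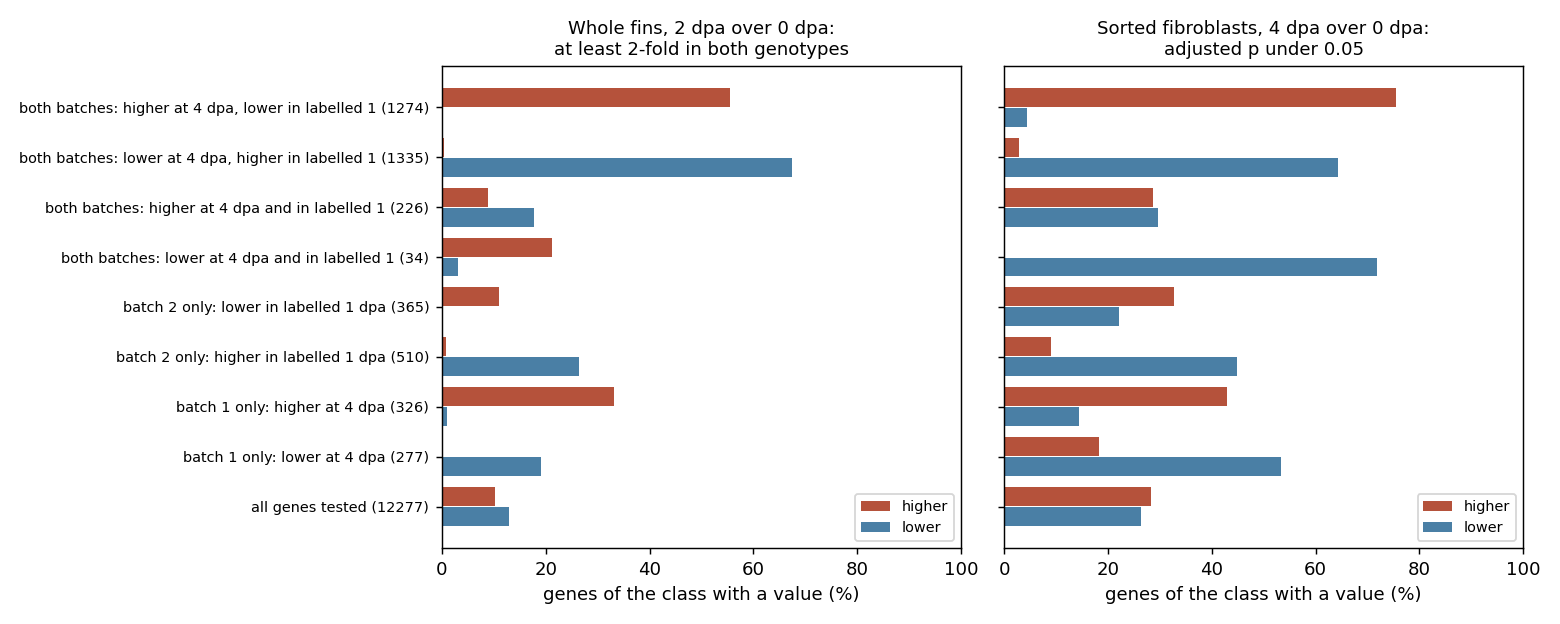
Share of the genes of each class and direction that were at least 2-fold higher or lower at 2 dpa over 0 dpa in both genotypes of whole fins (left) and called higher or lower at 4 dpa over 0 dpa in sorted fibroblasts (right), with the number of genes in the class in brackets and all genes tested in the lowest row. Genes higher at 4 dpa and lower in labelled 1 dpa were mostly higher in both, at 55.4% and 75.5%.

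In fibroblasts from fins at 4 dpa and 0 dpa (2 libraries each, from pools of 75 fish), carrying transgenes driven by tph1b that the labels name differently in different places, tested on their own, 3301 of 11671 genes (28.3%) were called higher and 3085 (26.4%) lower at 4 dpa. Of the genes higher at 4 dpa and lower in labelled 1 dpa, 945 of 1251 (75.5%) were higher in fibroblasts and 56 lower. Of the genes lower at 4 dpa and higher in labelled 1 dpa, 739 of 1148 (64.4%) were lower in fibroblasts and 32 higher. The 226 genes higher in both as titled were split, with 61 (28.6%) higher and 63 (29.6%) lower of 213 tested, near the share of all genes. Of the 34 genes lower in both as titled, 23 of 32 (71.9%) were lower and 0 higher. Of the early-only genes higher in labelled 1 dpa, 220 of 490 (44.9%) were lower and 44 higher in fibroblasts at 4 dpa. The fibroblast calls carried no fold limit, while the limit of 0.5 in whole fins of batch 1 is on size, so the 2 are unlike measures. The medians of these genes were -0.61 in fibroblasts and -0.12 in whole fins of batch 1. Of the early-only genes lower in labelled 1 dpa, 118 of 361 (32.7%) were higher and 80 (22.2%) lower, near the shares of all genes. Of late-only genes, 137 of 319 (42.9%) on the higher side were higher and 46 (14.4%) lower. On the lower side 143 of 268 (53.4%) were lower and 49 (18.3%) higher. The fibroblast log2 fold change was 4.37 for tnc, 7.23 for and1 and 2.67 for adamts3, and -0.89 for fn1b and -0.09 for krt18. For the bone genes ifitm5 and sp7 it was 0.099 and 0.13.

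The 2-fold limit separated genes of nearly equal values. nrarpa, at -1.0001 in batch 1, was just inside and xrcc1, at 0.9999, just outside. In batch 2 slc25a43, at 1.0002, was just inside and g6pc3, at -0.9996, just outside.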

How the data were processed

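Gene counts were measured by RNA-seq with a stranded mRNA kit in 10 whole-fin libraries, per the labels' protocols. The authors deposited raw counts: each library has 1 whole number per gene, followed by htseq-count's summary lines. Per the submitters' processing notes the tools include Trim Galore, TopHat2 2.1.1 and HTSeq 1.6.1, and the build is danRer10. No source used here gives the annotation or the strand setting, so overlapping, antisense and near-identical genes, keratins and chemokines among them, are uncertain. Reads on no gene (26.5 to 34.0%) and ambiguous reads (0.254 to 0.645%) stayed out.

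The 10 libraries were fitted together with a mean per group in edgeR 4.0.16 (R 4.3.3; TMM, expression filter, robust quasi-likelihood F test, two-sided, Benjamini-Hochberg over 12277 genes). The differences between responses were contrasts of that fit. The code was tested on simulated data. The 4 fibroblast libraries were fitted alone. Ratios at 2 dpa used a prior count of 2 and genes with at least 40 counts over 4 libraries. P-values measure the spread between pools. Low counts were compared as group sums, with exact conditional 95% intervals.

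Members and lists were chosen with earlier results of these data known. The lists name 1118 genes; 963 matched a gene in the files, 23 through another symbol. Named genes were a list of role genes, the 5 leading genes of each class and sign, up to 3 genes per list by the joint p of both responses, and the nearest genes to the fold limit. Leading genes reached a mean of 5 CPM in the higher group of a batch where they changed, and their groups did not overlap. For genes changed in both batches either batch was enough for the 5 CPM. Alternatives changed the scaling, filter, tool (DESeq2 1.42.0), libraries, replicate block and thresholds. The 18 accessibility samples were not analysed here.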

Additional observations from a re-analysis of the deposited data

Results flagged for a closer look

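Responses that differed between batch 1 (4 dpa minus 0 dpa) and batch 2 (labelled 1 dpa minus labelled 0 dpa) were looked at again by the test of the difference itself. As titled, 9939 genes differed, and exchanged 6381. The early-only and late-only classes require a called difference, so the values of their leading genes describe its size and are no second test. irg1l differed by -7.10 on the log2 scale as titled and by 6.59 exchanged. bhlha9 differed by 5.48 as titled and by -4.49 exchanged. adamts3 differed by 4.96 and by 4.13, and klf2a by -4.61 and by -4.34. Because stage and batch coincide, the stage and the batch cannot be told apart in any of these differences.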

How the results depend on the processing

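The counts of called genes and of class members stayed within 1.5 times of those reported under both other scalings, DESeq2, no filter, each batch alone, the replicate block and every left-out library. At 1.5-fold, 497 genes were sustained and 4335 opposite as titled; early-only and late-only genes were 1787 and 1143 as titled and 1591 and 979 exchanged. At 4-fold these were 49 and 696, 217 and 129, and 215 and 124. Where the limit of 0.5 was replaced by no call in the other batch, 841 genes were early-only and 523 late-only as titled. Exchanged, these were 708 and 465. A count does not say which genes: with library size alone 455 of the 875 early-only genes (52.0%) and 377 of the 603 late-only genes (62.5%) kept their class, against 2111 of the 2609 opposite ones (80.9%). With the replicate block, 8339 genes were called in batch 1, 9568 in batch 2, and 9749 and 5915 for the difference as titled and exchanged. Deviations of same-numbered libraries from their group means correlated at 0.040 in batch 1 and -0.073 to 0.009 in batch 2. Subtracting the means of so few libraries constrains these values, so they cannot settle whether the numbers pair the libraries. Leaving out 1 library gave 7690 to 8601 calls in batch 1, 9320 to 9980 in batch 2, and 9571 to 9858 and 5498 to 6401 for the differences. It gave 218 to 253 sustained, 2365 to 2660 opposite, 816 to 937 early-only and 555 to 651 late-only genes as titled. Exchanged, it gave 794 to 898 early-only and 509 to 622 late-only genes. Of 2751 values of 86 named genes, 2674 kept direction and call, 20 lost and 28 gained a call, and 29 turned. All 29 turned from a response that was not called, and 2 were then called: with library size alone alpl was at 0.33 and sepp1a at 0.34 in batch 1. With library size alone, btr29 (0.10), filip1l (0.01), has1 (0.12), hgd (0.09), irg1l (0.07), ltk (0.30), scpp8 (0.21) and slc25a43 (0.23) turned in batch 1 and mfap2 (0.11) in batch 2, where mfap2 was at 0.01 in its own batch. Leaving out 1 library, the batch 1 response spanned -0.63 to 0.06 for filip1l, -0.73 to 0.12 for has1, -0.55 to 0.04 for hgd, -0.76 to 0.51 for irg1l, -0.21 to 0.07 for ltk, -0.65 to 0.18 for scpp8, -0.12 to 0.07 for sepp1a and -0.39 to 0.15 for slc25a43. The batch 2 response spanned -0.26 to 0.33 for klf2a, -0.09 to 0.00 for mfap2, -0.49 to 0.11 for pnp5a and -0.14 to 0.37 for snrkb. The cause was not tested. Where an arm keeps 1 library, that library is assumed to vary like the others. Depth limits genes with few counts, such as ednrab and dusp13a.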
